A study of Mus musculus with 6 samples.

Results

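The genes described here encode the enzymes that cut the extracellular matrix and cell-surface proteins, their tissue inhibitors, and the enzymes that cross-link collagen and elastin. They were taken from the table by symbol as the matrix metalloproteinases (Mmp), the ADAM proteases (Adam), the ADAMTS proteases and ADAMTS-like proteins (Adamts, Adamtsl), the tissue inhibitors of metalloproteinases (Timp) and the lysyl oxidases (Lox, Loxl). The rule found 57 of the 13595 genes of the table: 17 Mmp, 14 Adam, 12 Adamts, 5 Adamtsl, 4 Timp and 5 Lox or Loxl genes. They were measured by poly(A) RNA sequencing in cultured primary CD31-positive cells from livers of C57BL6/J mice aged 4 weeks, CD31 being a surface marker of endothelial cells. There were 3 libraries labelled male and 3 labelled female. Both groups had received 100 µM indoxyl sulfate, a tryptophan metabolite that activates the aryl hydrocarbon receptor, together with 6 hours of hypoxia and nutrient deprivation. The series asks how this combined exposure acts in cells of either sex. Neither the ligand nor hypoxia varied among the 6 libraries, so the comparison made was that of the sex labels under treatment.

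Metalloproteinases of these families carry a zinc ion in the active site and are made as inactive precursors. Mmp enzymes act mainly on collagens, gelatin, laminin and proteoglycans, ADAM proteases release the outer parts of membrane proteins such as growth factor precursors, and ADAMTS proteases process procollagen or cut large proteoglycans. TIMP proteins bind and block the active enzymes. Lysyl oxidases convert lysine side chains of collagen and elastin into aldehydes that form cross-links. In the liver, sinusoidal endothelial cells, stellate cells and portal fibroblasts take part in this turnover, and fibrosis is accompanied by more cross-linked collagen and more TIMP.

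Depth, recovered from the deposited values by taking the smallest step as 1 read and summing within the table, ran from 22303270 to 31189363 reads per library, and 1 read corresponded to a normalized read count between 0.0353 and 0.0475. Xist was at 234 to 324 in the libraries labelled female and at or below 0.458 in those labelled male, but 4 Y-linked genes were present in every library labelled female. There, Ddx3y was at 50.2, 48.5 and 57.7 and Eif2s3y at 29.4, 29.8 and 30.2, against 47.2, 76.3 and 47.4 and 55.3, 61.2 and 57.8 in those labelled male. This goes against the female label, and directions are given by label only. The labels do not say whether replicates 4, 5 and 6 are separate mice, isolations or wells, so p-values measure only the spread between these libraries, which may be technical. No batch is named, and any batch shared with the sex label cannot be told apart from that label.

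Markers of several cell types differed between the groups. The counts given for them come from limma with no minimum on the values, since several reached the minimum used elsewhere through only 1 group. Of 17 endothelial markers, 13 were lower under the female label, 2 higher and 2 without a call, and their summed normalized read count was 2419 to 2536 in the libraries labelled male, against 1289 to 1352 where the label was female. Pecam1, which encodes CD31, was at 405, 391 and 423 against 73.5, 73.8 and 74.5. Of 10 sinusoidal markers, 3 were lower, 1 (Gata4) was higher and 6 had no call, with sums of 495 to 535 against 40.4 to 42.5, and their defining genes Stab2, Clec4g, Fcgr2b, Oit3 and Clec1b stayed under 1 in each of the 6 libraries. Of 13 fibroblast and stellate markers, 11 were lower and 2 higher, with sums of 3176 to 3881 against 1090 to 1107. Smooth muscle markers were higher for 7 of 8 genes and lower for 1 (354 to 471 against 2720 to 3457). Of 9 mesothelial markers, 7 were higher and 2 lower (sums of 525 to 616 against 553 to 568), with Wt1 at 0.0829, 0.114 and 0.106 against 11.7, 13.0 and 13.6. Cholangiocyte markers were lower for 4 of 6 genes, higher for 1 and without a call for 1 (1241 to 2018 against 415 to 503). Of these, Epcam stayed under 1 in every library. Sums stayed at or below 15.4 for macrophage markers (3 of 8 higher, 5 without a call) and 8.26 for hepatocyte markers (1 of 7 higher, 2 lower, 4 without a call), with Clec4f, Adgre1 and Timd4, the defining genes of liver macrophages, not analysed here and Alb under 1 in every library. None of the 9 lymphocyte markers was in the table. Fewer cells of a type and less RNA per cell cannot be told apart in such bulk samples, and the part of these markers in the results below was not tested.

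Values below are normalized read counts, given for the 3 libraries of a group in the order of replicates 4, 5 and 6, and a single library is called by its label and replicate number (male 4). Of the 57 genes, 47 reached the minimum for testing, a value of 1 in at least 3 libraries. By limma, 39 of these differed between the groups, with 13 higher where the label was female and 26 lower, while 69.3% of all 12568 genes tested differed (34.6% higher and 34.6% lower). The median log2 fold change of the 47 was -0.50, against 0.01 for all genes tested. Of the 47, 6 (Mmp9, Mmp10, Mmp28, Adam11, Adam28 and Adamts3) reached the minimum through only 1 of the groups, so nothing is read from these counts. Tested with no minimum, all 57 gave 18 higher, 28 lower and 11 without a call, where 66.8% of all genes were called (33.7% higher and 33.1% lower). In the test of the 47 genes that reached the minimum, a further requirement of a log2 change of 1 or more left 5 higher and 15 lower. Of all 12568 genes tested, 20.6% passed it (8.51% higher and 12.1% lower). Mmp9, Mmp10, Mmp28 and Adam11, which reached the minimum through only 1 group, are among those left, so nothing is read from these counts either. The groups did not overlap for 47 of the 57 genes, where 72.2% of all genes of the table and 74.1% of all genes tested did not.

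**Figure D1:**
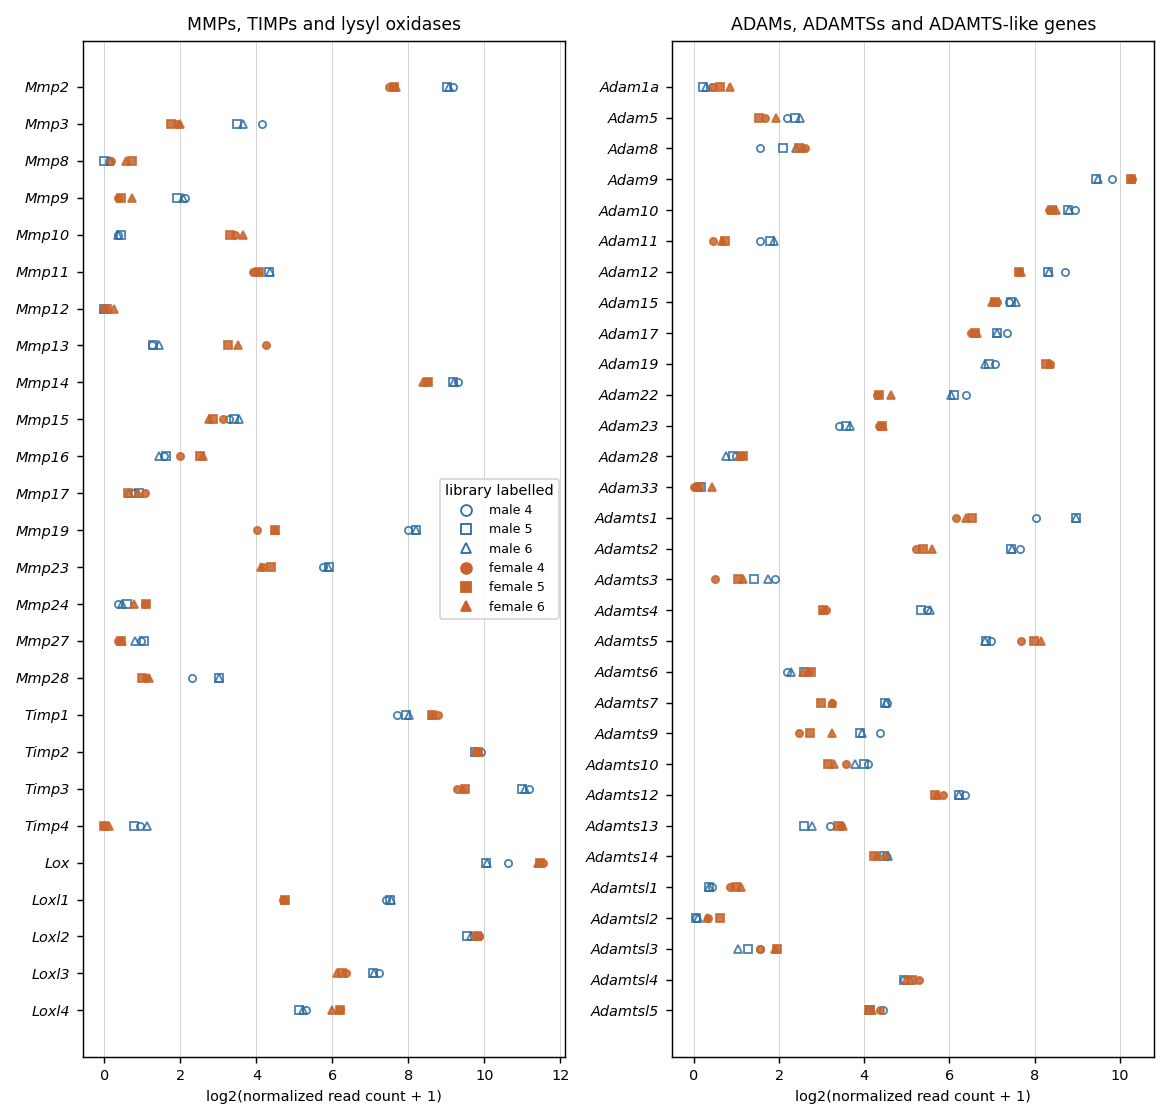
Each of the 57 genes in each of the 6 libraries, as log2(normalized read count + 1) on the x axis, with open blue symbols for the libraries labelled male, filled orange symbols for those labelled female and a symbol shape per replicate number. The widest gaps are those of Mmp19 (253 to 296 against 15.1 to 21.4) and Mmp10 (0.283 to 0.343 against 8.97 to 11.6), while the symbols of Timp2 and Adamtsl5 lie among each other.

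Among the Mmp genes, 8 of 12 tested were lower in the libraries labelled female, 3 were higher and 1 had no call, with a median log2 fold change of -1.13, where 34.6% of all genes tested were lower and 34.6% higher. Of the 12, Mmp9, Mmp10 and Mmp28 reached the minimum through only 1 group, and with no minimum the 17 genes gave 5 higher, 9 lower and 3 without a call. The lower genes included Mmp14 and Mmp2, which had the highest levels per kb of transcript in both groups, and the higher genes Mmp10, Mmp13 and Mmp16 had values of at most 18.0 in any library. Mmp2 and Mmp9 encode the gelatinases, which cut denatured collagen and the type IV collagen of basement membranes. Mmp2 was at 576, 521 and 536 in the libraries labelled male, against 179, 198 and 204 where the label was female. The groups lay far apart, and Mmp2 was 2.81-fold lower (log2 fold change -1.49, SE 0.07, limma adjusted p 6.03e-07). Mmp9 was much scarcer, at 3.36, 2.78 and 3.21 against 0.291, 0.354 and 0.665, and was lower when tested with no minimum (log2 fold change -1.53, limma adjusted p 2.74e-05 with no minimum).

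The membrane-type enzymes are anchored at the cell surface, where Mmp14 activates the precursor of Mmp2. Mmp14, the Mmp gene with the highest level per length, was at 636, 579 and 591 against 362, 365 and 331. Every library labelled female lay below every library labelled male, a 1.71-fold difference (log2 fold change -0.77, SE 0.07, limma adjusted p 1.71e-05). Mmp15 was lower to a smaller extent, at 8.67, 9.57 and 10.6 against 7.64, 6.23 and 5.75 (log2 fold change -0.50, limma adjusted p 0.00768). Mmp16 went the other way at a low level, from 1.95, 2.06 and 1.73 to 2.99, 4.69 and 5.08 (log2 fold change 0.83, limma adjusted p 0.00235). Mmp17 and Mmp24 were under the minimum, with 16 to 23 and 7 to 13 reads in the libraries labelled male, against 12 to 26 and 15 to 26 where the label was female. Membrane-type genes thus differed in direction, with the abundant Mmp14 lower and Mmp16 higher.

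Mmp19 encodes a basement membrane-degrading enzyme of many tissues and gave the widest difference of all 47 tested genes on the log2(value + 1) scale. It was at 253, 296 and 296 in the libraries labelled male, against 15.1, 21.4 and 21.4 where the label was female. This was a 14.6-fold lower level (log2 fold change -3.81, SE 0.13, limma adjusted p 1.32e-07). In GENCODE M21, 28.3% of its exonic bases lie opposite exons of Tmem198b or Gm47093 on the other strand. Tmem198b itself stood at 22.4, 27.5 and 24.9 against 14.9, 11.1 and 11.3. Whether reads were counted by strand is not given in the sources used here, and without strand the reads of the genes cannot be told apart. The same holds, for smaller parts of their exonic bases, for Timp3 (21.3%), Adam15 (20.6%), Mmp24 (13.6%), Mmp28 (12.0%), Adamts9 (12.0%), Loxl3 (11.6%), Adam1a (11.3%) and Adam19 (10.1%). The partner of Loxl3, Htra2, was higher at 20.0, 23.4 and 22.4 against 31.0, 31.0 and 29.7.

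Mmp23, an unusual member tethered by its amino end, was at 52.9, 59.3 and 58.4 against 17.2, 19.8 and 16.4, 3.20-fold lower (log2 fold change -1.63, SE 0.09, limma adjusted p 1.47e-06). Mmp28, known as epilysin, was at 3.94, 7.13 and 7.13 against 1.12, 0.972 and 1.23 (log2 fold change -1.71, limma adjusted p 0.000174 with no minimum), with male 4 lower than the other libraries of its group. Mmp11, which is activated inside the cell by furin, overlapped between the groups at 14.5, 19.3 and 19.4 against 14.0, 15.8 and 15.9. Its log2 fold change of -0.20 had a 95% interval of -0.48 to 0.09 and no call (limma adjusted p 0.194). Without male 4 it was called lower (log2 fold change -0.33, limma adjusted p 0.00668). The log2 fold change shrank to -0.131 without male 5 and to -0.129 without male 6 (limma adjusted p 0.443 and 0.445).

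The interstitial collagenases and stromelysins sit together on mouse chromosome 9, where RefSeq (GRCm38.p6) places Mmp13, Mmp12, Mmp1b, Mmp3, Mmp1a, Mmp10, Mmp8 and Mmp27 next to one another in this order. Mmp1a and Mmp1b were not analysed here. The genes of this cluster differed in direction, and the windows of 250 bases before the start sites of the 3 cluster genes tested are shown because each holds the letters bound by the AP-1 factors (Fos and Jun), TGACTCA or its reverse complement TGAGTCA, in capitals.
Mmp13 (GRCm38.p6, chr9:7272264-7272513, plus strand): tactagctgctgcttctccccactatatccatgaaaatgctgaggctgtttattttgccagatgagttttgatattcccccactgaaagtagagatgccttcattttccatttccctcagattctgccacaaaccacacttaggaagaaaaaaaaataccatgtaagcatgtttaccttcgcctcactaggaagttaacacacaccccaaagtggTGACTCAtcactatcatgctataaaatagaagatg
Mmp3 (GRCm38.p6, chr9:7445572-7445821, plus strand): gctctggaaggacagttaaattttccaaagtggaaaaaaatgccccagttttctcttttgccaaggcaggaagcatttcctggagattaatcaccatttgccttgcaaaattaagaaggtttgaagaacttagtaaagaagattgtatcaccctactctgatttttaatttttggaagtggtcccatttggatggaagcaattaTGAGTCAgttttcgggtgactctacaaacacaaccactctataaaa
Mmp10 (GRCm38.p6, chr9:7502092-7502341, plus strand): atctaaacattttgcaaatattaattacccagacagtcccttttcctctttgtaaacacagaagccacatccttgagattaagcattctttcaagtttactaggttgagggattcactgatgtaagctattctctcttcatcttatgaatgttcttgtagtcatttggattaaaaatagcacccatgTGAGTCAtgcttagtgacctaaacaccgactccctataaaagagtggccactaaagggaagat
The AP-1 letters begin 35 bases before the start in Mmp13, 46 in Mmp3 and 63 in Mmp10. Both strands were searched, and as each word is the reverse complement of the other, a match on either strand is counted at 1 place. Windows were found for 36 of the 57 genes, and 5 of their 40 windows (12.5%) held the letters, where 4.46% of all 32851 windows and 3.48% of the 12984 windows of genes in the table did. The other 2 windows belonged to Mmp12 and Adam19, each in 1 of several start sites. Apart from that of Adam19, the windows with the letters all lie in this cluster of related genes, so the share does not describe the 57 genes as a whole. The letters describe the sequence and not binding, and the submitters' processing notes name mm39, a later build than that of these windows.

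Mmp10 (stromelysin-2), which acts on proteoglycans and activates other Mmp precursors, was at 0.290, 0.343 and 0.283 in the libraries labelled male, or 7 to 9 reads each, and at 9.88, 8.97 and 11.6 in those labelled female. This was 33.3-fold higher (log2 fold change 3.09, limma adjusted p 6.72e-07 with no minimum), and the log2(value + 1) scale understates the change of so low a gene. Mmp3 (stromelysin-1), the nearest relative of Mmp10, differed the other way at 16.7, 10.3 and 11.5 against 2.74, 2.34 and 2.99, 4.77-fold lower (log2 fold change -1.88, SE 0.17, limma adjusted p 2.41e-05). Of the 50-base words in the transcripts of either gene, 8.4% also occur in the other, so their values are uncertain to that extent. Mmp13, the main interstitial collagenase of mice, was at 1.37, 1.41 and 1.73 against 18.0, 8.53 and 10.4, 8.19-fold higher (log2 fold change 2.35, SE 0.23, limma adjusted p 3.6e-05), with female 4 above the other libraries of its group. Thus Mmp13 was higher and Mmp3 lower, Mmp10 was higher in the test with no minimum, and the windows of all 3 hold the AP-1 letters. The windows of the neighbours Mmp8 and Mmp27 and 1 of the 2 windows of Mmp12 do not.

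The rest of the cluster lay near the limit of detection and was not tested under the minimum. Mmp8, the neutrophil collagenase, had 2, 0 and 3 reads under the male label against 3, 15 and 10 under the female label, a ratio of 6.5 with a 95% counting interval of 2.48 to 21.6. Mmp12, the macrophage elastase, had 0 reads in each library labelled male and 0, 1 and 4 in those labelled female, and a count of 0 allows up to 3 reads. Mmp27 stood at 0.954, 1.07 and 0.742 against 0.291, 0.354 and 0.380.

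**Figure D2:**
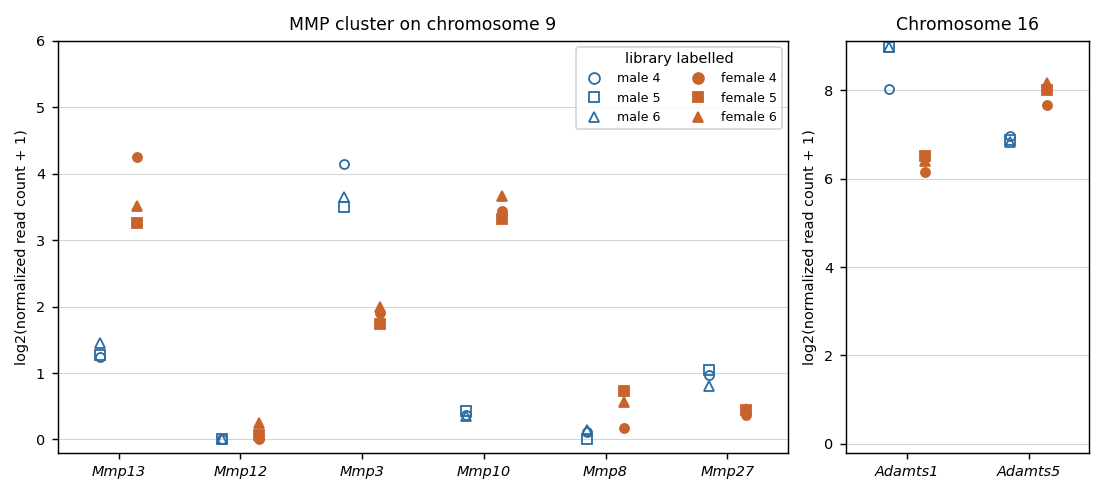
Genes that lie next to each other, in chromosomal order, with log2(normalized read count + 1) on the y axis and 1 symbol per library. On chromosome 9, Mmp13 and Mmp10 are higher and Mmp3 is lower in the libraries labelled female; on chromosome 16, Adamts1 is lower and Adamts5 higher.

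The Adam genes gave 4 higher and 7 lower of 12 tested and 1 without a call, with a median log2 fold change of -0.43, against the same 34.6% of all genes in each direction. Adam11 and Adam28 reached the minimum through only 1 group, and with no minimum the 14 genes gave 5 higher, 7 lower and 2 without a call. Differences were mostly small, and the most abundant member differed in direction from the main sheddases. Adam9, a protease with a broad set of membrane substrates and the highest level per length in the family, was at 906, 697 and 717 in the libraries labelled male, against 1259, 1237 and 1233 where the label was female. It was 1.61-fold higher (log2 fold change 0.69, SE 0.10, limma adjusted p 0.000346). Adam10, which cleaves Notch receptors and cadherins including that of endothelial junctions, was at 493, 442 and 450.4 against 322, 337 and 360.1, 1.36-fold lower (log2 fold change -0.44, SE 0.07, limma adjusted p 0.000545). Adam17, which releases tumour necrosis factor and EGF receptor ligands, was at 162, 138 and 139 against 90.6, 95.3 and 99.0, 1.54-fold lower (log2 fold change -0.61, SE 0.08, limma adjusted p 0.000167). For both genes the groups did not overlap.

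Adam15 and Adam12 were lower too. Adam15, which carries an integrin-binding RGD motif in humans, was at 169, 175 and 188 against 138, 133 and 126 (log2 fold change -0.42, limma adjusted p 0.000531). Adam12, known from muscle and activated fibroblasts, was at 416, 318 and 323 against 197, 198 and 204, 1.76-fold lower (log2 fold change -0.81, SE 0.10, limma adjusted p 0.000152), with male 4 the highest. The sum of fibroblast and stellate markers was lower in the same libraries, and its part in this was not tested.

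Adam19, a sheddase of neuregulin that is needed for heart valve formation, showed the widest increase in the family. It was at 133, 122 and 112 against 329, 308 and 328, 2.63-fold higher (log2 fold change 1.39, SE 0.07, limma adjusted p 1.01e-06), and the values within each group were close to one another. Adam22, Adam23 and Adam11 lack the residues for catalysis and act as adhesion proteins or receptors for LGI proteins. Adam22 was at 83.1, 68.2 and 64.8 against 18.6, 19.5 and 23.6, 3.50-fold lower (log2 fold change -1.76, SE 0.12, limma adjusted p 4.41e-06). Adam23 was 1.88-fold higher, at 9.58, 10.8 and 11.7 against 19.3, 20.3 and 20.6 (log2 fold change 0.86, SE 0.10, limma adjusted p 7.71e-05). Adam11 was scarce, at 1.95, 2.44 and 2.68 against 0.374, 0.663 and 0.570 (log2 fold change -1.13, limma adjusted p 0.000122 with no minimum). Adam22 and Adam23 thus differed in opposite directions.

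The remaining Adam genes were weakly expressed. Adam5, described as a testis gene, was lower at 3.52, 4.19 and 4.66 against 2.16, 1.90 and 2.80 (log2 fold change -0.64, limma adjusted p 0.00379). Adam8, a leukocyte protease, was called higher at 1.95, 3.28 and 4.27 against 5.10, 4.55 and 4.89 (log2 fold change 0.53, limma adjusted p 0.0413). That call was lost under edgeR (adjusted p 0.0634) and on leaving out any 1 library other than male 6 (limma adjusted p 0.0554 to 0.112). The log2 fold change itself was 0.30 without male 4 and 0.72 without male 6. Adam28 had no call at 0.995, 0.877 and 0.671 against 1.16, 1.24 and 1.09 (log2 fold change 0.23, limma adjusted p 0.073 with no minimum). Adam1a and Adam33 were under the minimum with 0 to 17 reads in any library, and 77.8% of the 50-base words of Adam1a also occur in other genes, Mapkapk5 foremost.

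Of the 12 Adamts genes, all tested, 8 were lower and 2 higher in the libraries labelled female and 2 had no call, with a median log2 fold change of -0.70, where 34.6% of all genes tested were lower and 34.6% higher. Adamts3 reached the minimum through only 1 group, and the counts were the same with no minimum. Adamts1, Adamts4, Adamts5 and Adamts9 cut versican and aggrecan, the large proteoglycans that bind hyaluronan. Adamts1, the member with the highest level per kb in the libraries labelled male, was at 259, 502 and 503 in the libraries labelled male, against 70.5, 90.9 and 82.8 where the label was female, 5.18-fold lower (log2 fold change -2.30, SE 0.24, limma adjusted p 4.75e-05). Male 4 lay below the other libraries of its group and above every library labelled female, and without it the log2 fold change was -2.62. Adamts4 was at 43.5, 39.3 and 45.7 against 7.59, 7.12 and 7.22, 5.86-fold lower (log2 fold change -2.40, SE 0.09, limma adjusted p 1.69e-07). Adamts9, the scarcest of the 4, was at 19.7, 14.0 and 14.5 against 4.52, 5.61 and 8.45, 2.59-fold lower (log2 fold change -1.27, SE 0.21, limma adjusted p 0.000713).

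Adamts5, the main aggrecanase of mouse cartilage, went against the other proteoglycan-cutting members. It was at 125, 116 and 112 against 203, 254 and 284, 2.10-fold higher (log2 fold change 1.052, SE 0.11, limma adjusted p 6.42e-05), with no overlap of the groups. Adamts5 and Adamts1 are neighbours on chromosome 16 in RefSeq (GRCm38.p6). Per kb of transcript, Adamts5 made up 6.03% to 8.93% of the summed Adamts level in the libraries labelled male, against 32.1% to 38.0% where the label was female. For Adamts1 these shares were 41.1% to 60.2% and 24.5% to 28.3%.

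Adamts2, Adamts3 and Adamts14 remove the amino propeptide of procollagens. Adamts2 was at 199.8, 174 and 176 against 35.9, 40.4 and 47.5, 4.44-fold lower (log2 fold change -2.13, SE 0.11, limma adjusted p 7.12e-07). Adamts3 was lower at a low level, 2.74, 1.64 and 2.33 against 0.415, 1.06 and 1.23 (log2 fold change -0.78, limma adjusted p 0.01 with no minimum). Adamts14 overlapped at 21.7, 21.0 and 22.6 against 21.2, 17.8 and 18.7, with a log2 fold change of -0.17 (95% interval -0.38 to 0.04, limma adjusted p 0.123). Adamts2 was lower in the libraries in which the procollagen genes Col1a1 (552 ± 20.8 against 345 ± 14.2, SD, n = 3) and Col3a1 (1266 ± 249 against 226 ± 18.9, SD, n = 3) were also lower by limma.

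Adamts7 and Adamts12, a pair known to degrade cartilage oligomeric matrix protein, were both lower. Adamts7 was at 22.2, 21.3 and 21.8 against 8.38, 6.94 and 8.45, 2.75-fold lower (log2 fold change -1.36, SE 0.10, limma adjusted p 6.56e-06). Adamts12 was at 81.6, 73.2 and 74.3 against 57.0, 49.3 and 51.3 (log2 fold change -0.53, limma adjusted p 0.000359). Adamts10, linked to fibrillin microfibrils, was at 15.9, 14.9 and 12.8 against 10.8, 7.91 and 8.74 (log2 fold change -0.62, limma adjusted p 0.00304). Adamts13, the von Willebrand factor protease made by liver stellate cells, was higher at 8.17, 4.96 and 5.86 against 9.88, 9.37 and 10.4 (log2 fold change 0.59, SE 0.16, limma adjusted p 0.00951). Its substrate Vwf, an endothelial marker, was at 40.3, 34.9 and 38.6 against 0.374, 0.530 and 0.570. Adamts6 had no call at 3.52, 4.96 and 3.81 against 5.44, 5.75 and 4.89 (log2 fold change 0.33, limma adjusted p 0.0553) and was called higher without male 5 (0.44, limma adjusted p 0.0192) or with quantile normalization (0.39, limma adjusted p 0.0218).

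ADAMTS-like proteins share the ancillary domains of ADAMTS proteases but have no protease domain, and several bind fibrillin. Adamtsl4 and Adamtsl5 were the members with the most reads, at 29.6, 29.6 and 32.9 against 37.8, 33.9 and 30.4 and 20.6, 16.7 and 16.2 against 19.5, 16.4 and 17.0. Neither was called, with 95% intervals of the log2 fold change of -0.08 to 0.36 and -0.28 to 0.25. Adamtsl3 was called higher at 1.91, 1.41 and 1.06 against 1.91, 2.87 and 2.75 (log2 fold change 0.52, limma adjusted p 0.0243), a call lost without male 5, male 6, female 5 or female 6 (limma adjusted p 0.0583 to 0.0868). Adamtsl1 was under the minimum at 0.332, 0.267 and 0.283 against 0.789, 0.972 and 1.14. Adamtsl2 held 1, 1 and 2 reads against 6, 12 and 5, a ratio of 6.67 with a 95% counting interval of 2.28 to 26.5.

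**Figure D3:**
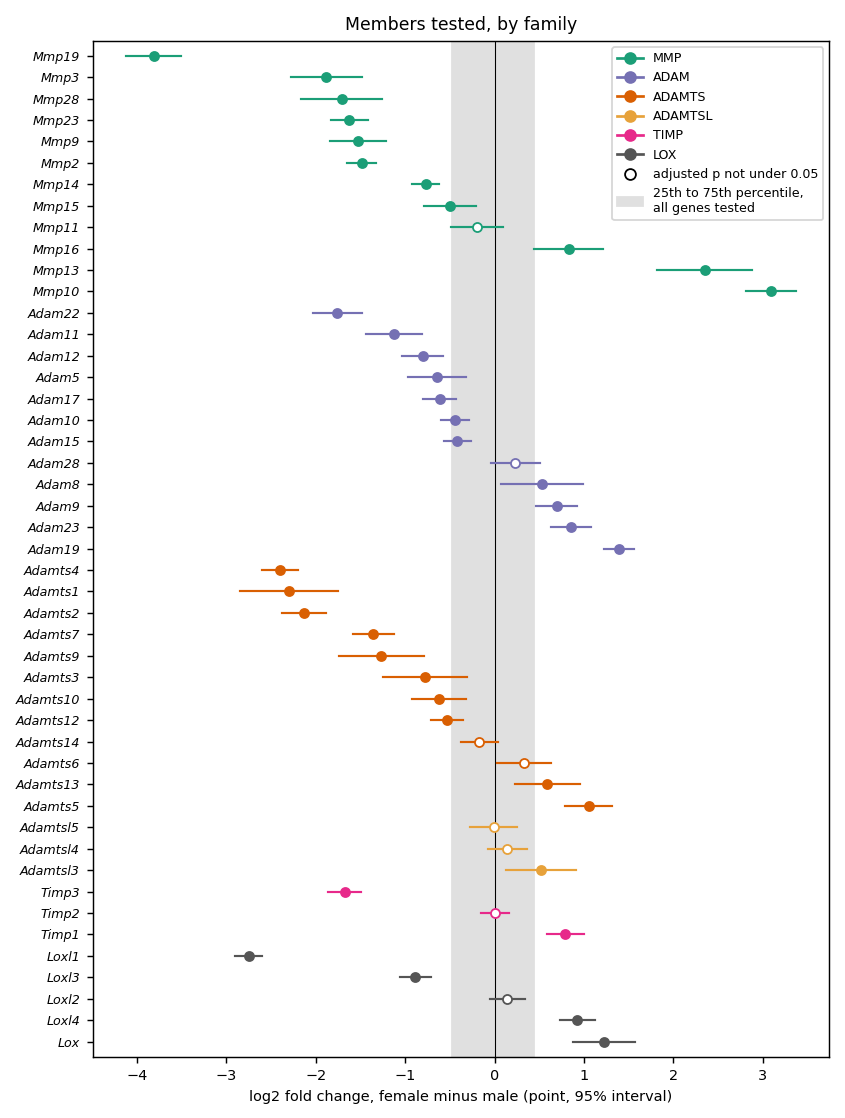
Log2 fold change of the 47 tested genes, libraries labelled female minus male, as points with 95% intervals, coloured by family and ordered by size within it; open points are not called. The grey band spans the 25th to 75th percentile of all genes tested (-0.47 to 0.44), and the points run from -3.81 for Mmp19 to 3.09 for Mmp10. Mmp9, Mmp10, Mmp28, Adam11, Adam28 and Adamts3 reached the minimum through only 1 group, and nothing is read from whether their points are filled.

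The 4 Timp genes differed from one another. Timp1 was higher, Timp3 lower, Timp2 uncalled, and Timp4 present in few reads. Timp3, which binds to the matrix and also blocks ADAM and ADAMTS proteases, was at 2328, 2042 and 2157 in the libraries labelled male, against 624, 719 and 695 where the label was female. It was 3.20-fold lower (log2 fold change -1.68, SE 0.08, limma adjusted p 6.46e-07). Opposite its exons lie exons of Syn3 (21.3% of the exonic bases). Syn3 stood at no more than 1.06 in any library, but that value also depends on how reads were assigned by strand. The part of this overlap was not tested. Timp1, an X-linked soluble inhibitor that is induced in fibrotic liver, was at 207, 247 and 257 against 439, 396 and 391, 1.73-fold higher (log2 fold change 0.79, SE 0.09, limma adjusted p 8.99e-05). Timp2, which inhibits Mmp2 and also takes part in its activation by Mmp14, overlapped at 965, 862 and 881 against 870.4, 919 and 925. Its log2 fold change was 0.0044 with a 95% interval of -0.15 to 0.16 (limma adjusted p 0.957), and the sign turned under TMM and RLE scaling.

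Timp4, the inhibitor best known from heart and fat tissue, had 22, 19 and 33 reads under the male label against 0, 0 and 2 under the female label. It was under the minimum for testing, with a ratio of male to female of 31.9 and a 95% counting interval of 8.52 to 268. The interval covers counting error only.

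Because levels of different genes can be set side by side only per length, normalized read counts were divided by the length in kb of the longest coding transcript. On that scale Timp3 had the highest level of the 57 genes in the libraries labelled male (461 ± 30.5, SD, n = 3), followed by Timp1 (268 ± 29.8), Lox (261 ± 63.1) and Timp2 (243 ± 14.7). These 3 did not differ from one another beyond their spread there. In the libraries labelled female the order was Lox (599 ± 27.4), Timp1 (463 ± 29.8), Adam9 (307 ± 3.41) and Timp2 (244 ± 8.10), with Timp3 at 144 ± 10.5. Timp3 made up 45.8% to 49.9% of the summed Timp level per kb in the libraries labelled male, against 15.3% to 18.0% where the label was female. For Timp1 the shares were 23.7% to 29.6% and 52.8% to 57.6%. The sum over the Timp genes itself was 944 to 988 against 840 to 864 per kb, and the groups did not overlap.

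The sum over the 17 Mmp genes was 497 to 516 per kb in the libraries labelled male, against 209 to 217 where the label was female. Mmp14 and Mmp2 held most of it in both groups, with Mmp14 at 36.0% to 38.1% of the sum in the libraries labelled male and 48.9% to 53.4% where the label was female. The share of Mmp19 was 14.4% to 17.5% against 2.11% to 3.01%. Set against the Timp sum, the Mmp sum came to a ratio of 0.521 ± 0.00665 in the libraries labelled male, against 0.249 ± 0.00667 where the label was female (SD, n = 3). These sums describe RNA, with no test, and say nothing of active enzyme.

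**Figure D4:**
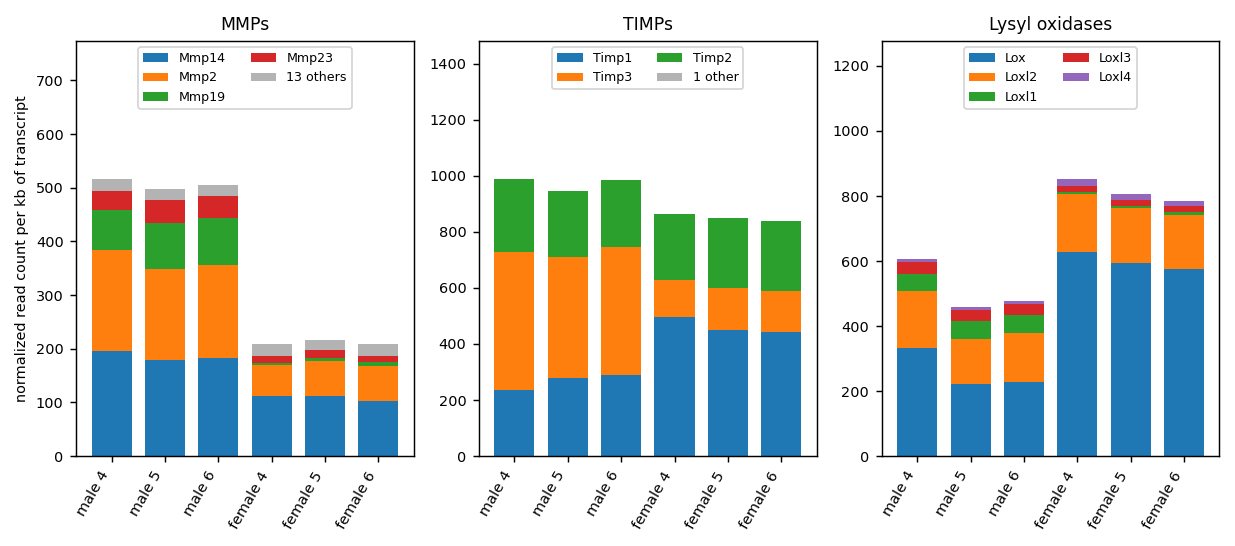
Summed level of the Mmp, Timp and lysyl oxidase genes in each of the 6 libraries, as stacked bars of normalized read count per kb of the longest coding transcript, each y axis starting at 0. The Mmp bars are lower in the libraries labelled female (209 to 217 against 497 to 516) and the lysyl oxidase bars higher (785 to 852 against 458 to 606), while in the Timp bars Timp1 takes the place of Timp3 as the thickest segment.

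Lysyl oxidases gave 2 higher, 2 lower and 1 without a call, where 34.6% of all genes tested were higher and 34.6% lower. Lox, the founding member, which is induced by hypoxia in many cells, was at 1581, 1047 and 1082 in the libraries labelled male, against 2983, 2809 and 2729 where the label was female. It was 2.30-fold higher (log2 fold change 1.22, SE 0.15, limma adjusted p 0.000125), and male 4 lay above the other libraries of its group but below each library labelled female. Loxl1, which is needed for elastic fibre renewal, was at 168, 182 and 186 against 25.03, 26.1 and 26.0, 6.96-fold lower (log2 fold change -2.75, SE 0.06, limma adjusted p 2.04e-08). Loxl3 was at 148, 133 and 136 against 80.5, 75.4 and 69.2, 1.86-fold lower (log2 fold change -0.89, SE 0.08, limma adjusted p 1.48e-05). Loxl4 was at 38.6, 33.6 and 36.4 against 73.0, 72.8 and 63.2, 1.92-fold higher (log2 fold change 0.92, SE 0.08, limma adjusted p 2.28e-05).

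Loxl2, which acts on the type IV collagen of basement membranes and is a target of antifibrotic antibodies, was at 929.8, 747 and 800.1 against 934, 900.0 and 890.2. Its log2 fold change of 0.14 (95% interval -0.06 to 0.34) had no call (limma adjusted p 0.171), but it was called higher without male 4 (0.23, limma adjusted p 0.00131) and with quantile normalization (0.20, limma adjusted p 0.0407), and was at 0.074 without male 5 (limma adjusted p 0.481). Its value is uncertain, since 45.0% of its 50-base words also occur in other transcripts, those of the gene model Gm21451 foremost. Per kb, Lox held 47.7% to 55.0% of the summed lysyl oxidase level in the libraries labelled male, against 73.3% to 73.9% where the label was female, while Loxl1 held 8.43% to 12.1% against 0.891% to 1.004%.

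Other genes of matrix turnover were described from lists of the same pathways. Of 14 tested genes of precursor activation and the plasminogen system, 7 were higher and 4 lower (median log2 fold change 0.50). Prss23, a secreted serine protease, was at 215, 136 and 132 against 1012, 1056 and 1036 (log2 fold change 2.72, SE 0.17, limma adjusted p 2.37e-06), and Serpine2, an inhibitor of thrombin and plasminogen activators, at 535, 657 and 727 against 82.0, 74.2 and 68.0 (log2 fold change -3.07, SE 0.12, limma adjusted p 1.95e-07). Of 16 tested genes of other matrix proteases, 5 were higher and 9 lower (median -0.32). The widest increase was that of Tll1, a procollagen C-proteinase (log2 fold change 1.07, limma adjusted p 3.73e-06), and the widest decrease that of Htra3, a secreted serine protease (-3.26, limma adjusted p 4.4e-07). Among 14 tested genes of other inhibitors and clearance, 5 were higher and 7 lower (median -0.46), and 1 gene of this list, Pcolce, is also a fibroblast marker. Thbs1, which binds several Mmp enzymes and activates TGF-beta, was at 528, 411 and 393 against 3321, 2905 and 2596 (log2 fold change 2.73, SE 0.13, limma adjusted p 5.73e-07), whereas Papln, a protein related to the ADAMTS-like family, was lower (log2 fold change -1.78, limma adjusted p 5.2e-06 with no minimum).

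Of 7 tested ADAM regulators, among them iRhom proteins and tetraspanins that escort Adam17 and Adam10, 1 was higher and 3 lower (median -0.20). They included Tspan17, at 6.80, 8.35 and 7.70 against 18.0, 17.9 and 15.7 (log2 fold change 1.08, SE 0.11, limma adjusted p 3.73e-05), and Tspan5, at 179, 140.1 and 151 against 49.6, 55.0 and 58.8 (log2 fold change -1.50, SE 0.10, limma adjusted p 4.14e-06). Of 18 tested genes for proteins shed by ADAM proteases, 7 were higher and 9 lower (median -0.22), and 1 of the list, Cdh5, is also an endothelial marker. Ereg, an EGF receptor ligand, was higher (1.37, limma adjusted p 0.000158) and Cx3cl1, a membrane-bound chemokine, lower (-2.26, limma adjusted p 4e-07).

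Of 11 tested genes for ADAMTS substrates, 9 were lower, 0 higher and 2 without a call (median -1.09). Comp and Vwf reached the minimum only through the libraries labelled male, and with no minimum 1 gene of the list, Hapln1, was higher. The von Willebrand factor gene Vwf, given above, was lower (log2 fold change -4.71, limma adjusted p 9.95e-08 with no minimum), and 4 genes of this list are also markers of endothelial cells or fibroblasts, whose sums were lower in the same libraries. Of 18 tested genes of elastic fibres and lysyl oxidase partners, 4 were higher and 9 lower (median -0.35). The microfibril genes Mfap5 and Mfap2 were at 0.0829, 0.229 and 0.141 against 7.01, 5.57 and 5.89 (log2 fold change 2.63, limma adjusted p 1.16e-06 with no minimum) and 21.4, 28.9 and 27.4 against 0.540, 1.24 and 0.712 (log2 fold change -3.88, limma adjusted p 1.45e-06 with no minimum). Fap, Dpp4, Papln, Wfikkn2, Nrg1, Eln, Mfap2 and Mfap5 of these lists also reached the minimum through only 1 group. In each list the counts are to be read against the 34.6% of all genes called in either direction alone.

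In the authors' deposited table, 21 of the 57 genes had a false discovery rate under 0.05, 17 of them lower under the female label and 4 higher. Of all 13595 genes of the authors' deposited table, 25.8% were under that rate, 13.8% lower and 12.0% higher. Of the 21 genes, 20 were limma calls in the same direction, and Timp4 was under the minimum here. The authors' deposited table did not call 19 genes that limma called, among them Lox (false discovery rate 0.0698), Timp1 (0.0792), Adamts5 (0.0819) and Adam9 (0.0556). For all 47 genes tested the sign was the same as in the authors' deposited table. Both were computed from the same libraries, so matching signs and calls are no independent support.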

How the data were processed

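The data are 6 poly(A) RNA-seq libraries, 3 labelled male and 3 labelled female. The submitters' processing notes name Bowtie2, RSEM, edgeR and the build mm39, with no role or order. The authors deposited 1 signal column per library, holding normalized read counts. Of the values in a column, 100% were whole multiples (within 0.001 reads) of the smallest value above 0, so the authors divided whole reads by 1 factor per library. A deposited score column gives a signed fold change, and deposited p-value columns give p and the false discovery rate of the authors' own test, per the file headers. Columns were matched by title, and 0 were left without a sample.

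With limma 3.58.1 in R 4.3.3 (trend), log2(value + 1) was fitted over the 12568 genes that reached 1 in 3 or more libraries. P-values were adjusted by Benjamini-Hochberg over all genes, with a threshold of 0.05. The log2(value + 1) scale understates changes of low genes. On simulated reads for 12447 genes, limma recovered 200 of 200 genes changed by a log2 size of 1, and 3.38% of its calls were false. No low genes were changed there, increases and decreases were balanced, and the same spread was set for all genes. In the real data 69.3% of all genes tested were called. The simulation therefore cannot speak for low genes, more variable genes or so broad a difference. Alternatives were other scalings (TMM, RLE, quantile), no minimum, a minimum of 10 reads per library, 0.1 as pseudocount, the replicate number as a block, edgeR 4.0.16 and DESeq2 1.42.0 on recovered reads, each library left out, and a fold-change threshold.

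The families follow the symbol rule. Members, lists and the rule for named genes were chosen with earlier results of these data known. The rule named all Timp and lysyl oxidase genes, the most abundant gene per length and up to 4 higher and 4 lower genes in the Mmp, Adam and Adamts families, and the widest higher and lower gene of each other list. Other members are given by values or counts. Lengths, shared 50-base words and exon overlaps came from GENCODE M21 (GRCm38), and promoter windows from RefSeq (GRCm38.p6). Counting intervals (95%, exact binomial) and the floor of 3 reads cover counting error only.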

Additional observations from a re-analysis of the deposited data

How the results depend on the processing

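The count of 39 members called, with 13 higher and 26 lower, moved by less than 1.5 times in the 9 alternatives on all 6 libraries (36 to 46 called, 12 to 18 higher, 24 to 28 lower) and in the 6 fits that each left out a library (37 to 40 called, 11 to 13 higher, 26 to 27 lower). The count over all genes, 8704, ran from 8236 to 9085 and from 7731 to 9496. Asking for a log2 change of 1 or more left, by its construction, 20 members, 5 higher and 15 lower, and 2589 genes in all. The median log2 fold change of all genes moved most under quantile normalization, from 0.01 to 0.08. Of 895 values recomputed for the 47 members and 13 other named genes, 868 kept direction and call, 10 lost the call, 5 gained it and 12 reversed. The 12 belonged to Timp2 and Adamtsl5, neither of which was called. Timp2 was at -0.0095 with TMM, -0.0061 with RLE, -0.0031 with edgeR and -0.0019 with DESeq2, and from -0.028 to 0.053 across the fits that left out a library. Adamtsl5 was at 0.062 with quantile normalization and from -0.084 to 0.0897 across those fits. The cause was not tested. The 10 lost calls were of Adam8 and Adamtsl3 and the 5 gained were of Mmp11, Adamts6 and Loxl2. Pairing by replicate number was not found, since deviations from the group mean correlated between same-numbered libraries at -0.09, -0.03 and -0.17. With the replicate block 39 members and 8314 genes were called, and each member kept its call. Genes under about 1 normalized read count rest on few reads. With no minimum, 7 of the 10 members left out of the tests were called (5 higher and 2 lower), where 66.8% of all genes were.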

Other observations

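Other short motifs were counted in the same windows of 250 bases before the start sites, on both strands, as a description of sequence alone. The core letters of HIF sites, ACGTG, occurred in 6 of the 40 windows of the members (15%), belonging to Adam10, Adam19, Adamts3, Mmp14 and Timp1, in 16.6% of all 32851 windows and in 21.2% of the 12984 windows of genes in the table. The core letters of AHR sites, GCGTG, occurred in 18 of the 40 windows (45.0%), in 28.2% of all windows and in 43.9% of those of genes in the table. A match shows neither a site nor a cause.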
